A study of Mus musculus with 9 samples.

Results

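Spp1 encodes osteopontin, a secreted phosphoprotein known from bone and from activated macrophages. Spp1 was followed here together with 4 genes for its receptors, Cd44, Itgav, Itgb3 and Itgb5, in mouse bone marrow cells transformed by the leukaemia fusion KMT2A-MLLT1. These 5 genes were taken by symbol from the 21159 genes of the deposited count table. Each of the 5 was among the 11196 genes that passed the filter on low counts. Spp1, a known skeletal target of Runx2, was chosen with results of these data known, but the value that chose it is not recorded. Its higher level in the transformed Runx2wt libraries than in the BM progenitor libraries described next is taken as that value. This is assumed wherever the choice of Spp1 is named below. The receptor genes were listed for their function. Whether their values played a part is not recorded, so their tests against BM progenitor are given as descriptions of these libraries. The same holds for every test of Spp1, since the libraries that chose it are part of each comparison.

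The study measured gene expression in 9 libraries by QuantSeq, in which a read marks the 3′ end of a transcript, so that a count does not grow with transcript length. Every library came from lineage-depleted (Lin-) marrow cells of the genotype Runx2fl/fl with the transgene CreER T2tg, a Cre recombinase that 4-hydroxytamoxifen (4-OHT) activates, and the labels describe infection with a KMT2A-MLLT1-eGFP retrovirus and growth with IL-3, IL-6 and stem cell factor. BM progenitor (n = 3) was untreated and was sampled ahead of the first replating in methylcellulose, and the labels do not say whether those cells carried the fusion. Runx2wt (n = 3) was transformed cells in suspension culture given ethanol, and Runx2ko (n = 3) was such cells given 400 nM 4-OHT over 24 hours. The floxed alleles, the Cre transgene and the cytokines are therefore common to controls and treated cells. The effects of the drug, of active Cre and of Runx2 loss cannot be told apart here. The labels call the samples independent biological replicates; they do not give the age of the mice, the promoter that drives Cre or any pooling of animals.

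Osteopontin binds cells in more than one way. It carries an arginine-glycine-aspartate motif that integrins recognise, among them the pairs of the alpha v subunit (Itgav) with the beta 3 subunit (Itgb3) or the beta 5 subunit (Itgb5), and it is also a ligand of CD44, the surface receptor best known for binding hyaluronan. Alpha v with beta 3 is the vitronectin receptor by which osteoclasts attach to bone, whereas beta 3 also pairs with the alpha IIb subunit (Itga2b) on megakaryocytes and platelets. Integrins work only as alpha-beta pairs, so each receptor depends on both of its genes.

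RefSeq promoter windows (GRCm38.p6, 250 bases before to 50 after the transcription start) matched 4 of the 5 genes, with 5 windows, since Spp1 has a pair. They are described because RUNX factors bind TGTGGT, and Runx2 is the gene the design targets. Of the 5 windows, 1 held TGTGGT on either strand, the upstream window of Spp1, and none held TGCGGT, the other RUNX form searched. Across all 32851 windows 16.76% held TGTGGT and 6.45% held TGCGGT. The AP-1 motif (TGA, any base, TCA) and TGATTNAT, bound by HOX with PBX proteins, were in 7.81% and 3.22% of all windows and in none of the 5. The 250 bases before the start of Spp1 (chr5:104434861-104435110, plus strand) and of Itgb5 (chr16:33829415-33829664, plus strand) are shown because these 2 genes had the highest levels relative to BM progenitor. Capitals mark the match in Spp1, read as ACCACA on the gene's strand, from 128 to 123 bases before the start.
Spp1: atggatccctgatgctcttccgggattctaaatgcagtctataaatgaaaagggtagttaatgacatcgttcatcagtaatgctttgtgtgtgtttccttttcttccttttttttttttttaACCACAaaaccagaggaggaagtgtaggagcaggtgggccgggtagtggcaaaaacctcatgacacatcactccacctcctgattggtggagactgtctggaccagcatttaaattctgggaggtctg
Itgb5: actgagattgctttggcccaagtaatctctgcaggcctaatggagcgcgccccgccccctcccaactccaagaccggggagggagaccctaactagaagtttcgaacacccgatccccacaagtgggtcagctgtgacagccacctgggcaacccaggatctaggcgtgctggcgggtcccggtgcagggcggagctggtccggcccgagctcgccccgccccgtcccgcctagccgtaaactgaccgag
These matches describe letters only, and no binding was measured.

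Library totals ran from 3118594 to 5348177 counts. Values are CPM, tag counts scaled to a common library size, on TMM-scaled library sizes unless a log2 fold change is named, and 1 CPM stood for 3.09 to 5.48 counts. Which exon was floxed is not named, and a 3′ tag of Runx2 may lie outside it and so does not check the deletion. Runx2 had 159, 179 and 131 CPM in the Runx2wt libraries against 21, 120.1 and 135 CPM in those of Runx2ko, so the libraries labelled Runx2ko replicates 2 and 3 lay close to or within the range of Runx2wt. Runx2ko replicate 1 stood apart in marker levels too. Its 12 monocyte and macrophage markers summed to 573 CPM (1 of them at 0), against 5250 to 12765 CPM in the other 5 transformed libraries and 4036 to 5826 CPM in BM progenitor. Its 13 mast cell and basophil markers summed to 3955 CPM, against 90.0 to 586 CPM and 1103 to 1247 CPM. Its 11 megakaryocyte and platelet markers summed to 815 CPM, against 26.0 to 68.4 CPM and 75.3 to 78.2 CPM. Itga2b alone gave 688 of the 815 CPM in that library. Erythroid markers summed there to 902 CPM, against 169 to 312 CPM in the other libraries, and Hbb-bt alone gave 775 CPM. Neutrophil markers, at 807 CPM in sum, were the lowest of all libraries. Results for the 5 genes that rest on this library, and calls in other genes over BM progenitor in Runx2ko, are therefore given with and without it. In such bulk samples fewer cells of a type and less RNA per cell cannot be told apart. BM progenitor held neutrophil markers at 12114 to 16422 CPM and eosinophil markers at 1377 to 1839 CPM in sum, so that label covers cells that also carry RNA of maturing granulocytes. T cell markers summed to 8.21 to 41.5 CPM over all 9 libraries and markers of osteoblasts and stroma to 2.5 to 19.4 CPM.

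**Figure D1:**
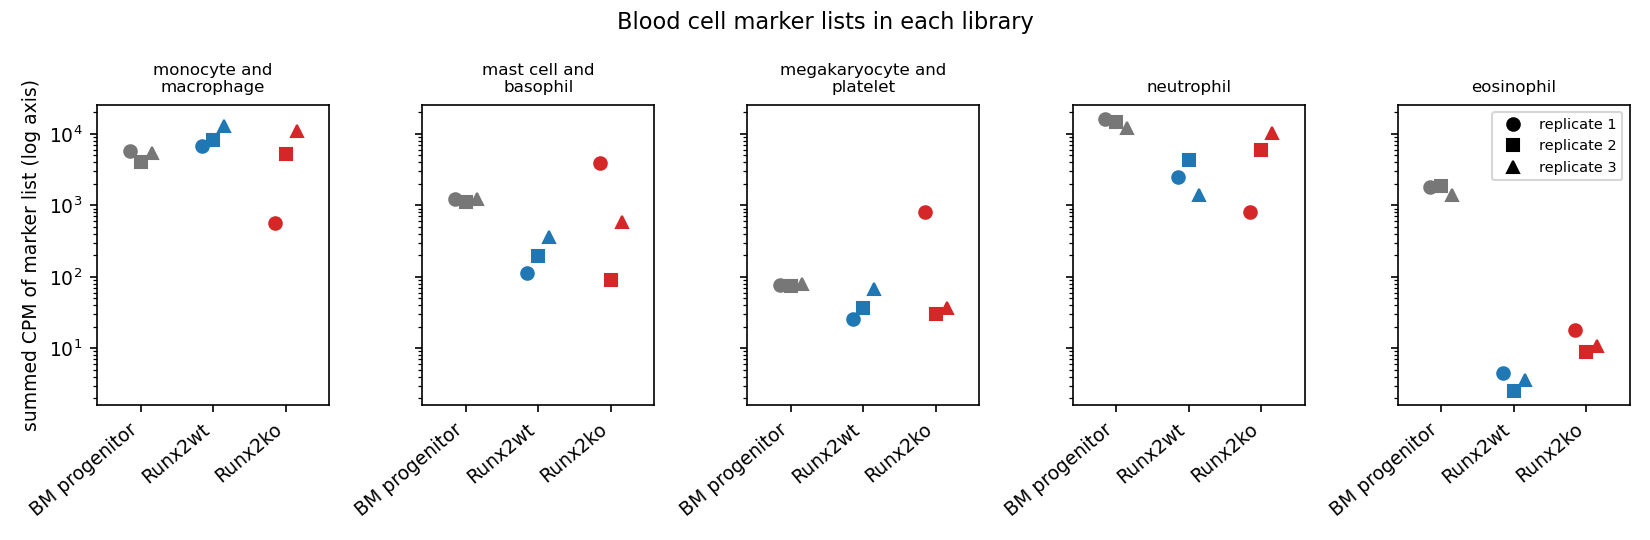
Summed CPM (log axis) of 5 marker lists in each library, with 1 point per library and a shape per replicate number. Runx2ko replicate 1 (red circle) is lowest of all libraries for monocyte and macrophage markers, at 573 CPM, and highest for mast cell and basophil markers, at 3955 CPM.

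Spp1 (ENSMUSG00000029304, GRCm38 chromosome 5, 104435118 to 104441050, plus strand), the ligand, had its lowest levels in BM progenitor, at 10.2, 18.1 and 26.8 CPM. Runx2wt libraries held 833, 260 and 1570 CPM, and Runx2ko libraries held 45.3, 312 and 270 CPM. Every transformed library thus lay above every BM progenitor library, and within both transformed groups the highest library was more than 6 times the lowest (6.03 times in Runx2wt and 6.90 times in Runx2ko). Runx2wt averaged 888 ± 657 CPM against 18.4 ± 8.27 CPM for BM progenitor (SD, n = 3 each), 48.4 times as high. That difference chose the gene and is given without a test. By count, Spp1 ranked 61, 139 and 741 among the genes of the Runx2wt libraries, and between 5705 and 8070 in BM progenitor.

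In Runx2ko the mean of Spp1 was 209 ± 143 CPM (SD, n = 3), which lay between those of the other groups. Spp1 rose relative to BM progenitor, with a log2 difference of 3.51 (SE 0.82; edgeR, adjusted p = 0.0215), and the groups did not overlap. The BM progenitor libraries of this comparison also enter the difference that chose Spp1. It was 3.99 without Runx2ko replicate 1 (edgeR adjusted p = 0.000865). The call was lost without BM progenitor replicate 1, 2 or 3 (edgeR adjusted p = 0.086, 0.0859 and 0.0697), with limma-voom (adjusted p = 0.0586) and with the deposited normalized values at a pseudocount of 0.5 (limma adjusted p = 0.0517).

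Between Runx2ko and Runx2wt, the comparison the design makes for Runx2 deletion, the Spp1 level differed by a log2 fold change of -2.08 (SE 0.76, 95% interval -3.78 to -0.39). Spp1 was chosen by its high level in the same Runx2wt libraries, which favours a lower value in Runx2ko, so this is a description. It did not pass (edgeR adjusted p = 0.579, unadjusted p = 0.0213), and the groups overlapped, since Runx2wt replicate 2 at 260 CPM lay below Runx2ko replicates 2 and 3. The highest Runx2wt value, replicate 3, weighed on this difference, which was -1.39 without that library (unadjusted p = 0.105, adjusted p = 0.767). It was -1.61 without Runx2ko replicate 1 (adjusted p = 0.495). Over 18 alternatives the difference stayed negative, from -2.52 to -1.39, and the adjusted p ran from 0.326 to 0.978. Runx2ko replicate 1, with the lowest Spp1 of the transformed libraries, is also the library with the lowest monocyte and macrophage markers, and the part of those cells in the Spp1 level was not tested. For the same marker list, Runx2wt replicates 1, 2 and 3 had sums of 6683, 8224 and 12765 CPM beside Spp1 at 833, 260 and 1570 CPM. Runx2ko replicates 2 and 3 had sums of 5250 and 11141 CPM beside Spp1 at 312 and 270 CPM. These sums are mostly Lyz2 and Ly6c2, at 3743 and 2496 CPM in Runx2wt replicate 1. Single markers of the list differed in their order over Runx2wt replicates 1, 2 and 3. Cd68, at 112, 56.0 and 186 CPM, had the order of Spp1, whereas Csf1r, at 88.4, 139 and 322 CPM, had that of the sum.

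**Figure D2:**
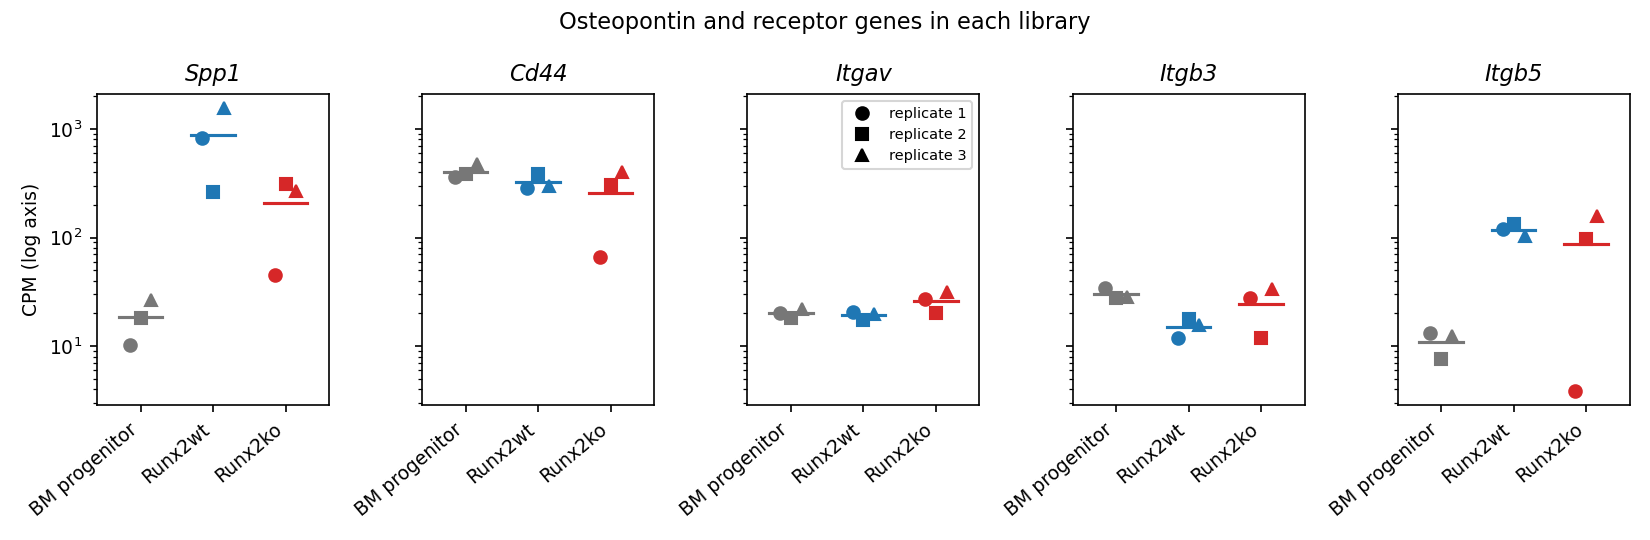
CPM (log axis) of Spp1, Cd44, Itgav, Itgb3 and Itgb5 in each library, with 1 point per library, a shape per replicate number and a line at the group mean. Spp1 spans 10.2 to 1570 CPM and Itgb5 3.88 to 158 CPM, whereas Itgav stays between 17.5 and 31.2 CPM.

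Itgb5 (ENSMUSG00000022817, GRCm38 chromosome 16, 33829665 to 33949338, plus strand), the beta 5 subunit, had 13.1, 7.55 and 12.3 CPM in the BM progenitor libraries. Runx2wt libraries had 119, 132 and 103 CPM, and those of Runx2ko had 3.88, 97.4 and 158 CPM. All 3 Runx2wt libraries and 2 of the 3 Runx2ko libraries were far above BM progenitor, while Runx2ko replicate 1, with 12 counts, was below it. From a mean of 11 ± 3.02 CPM, Itgb5 rose to 118 ± 14.9 CPM in Runx2wt (SD, n = 3 each), which is 3.41 on the log2 scale (SE 0.91, edgeR adjusted p = 0.0383). It was 1 of 4 receptor genes that passed there, where 13.5% of all tested genes passed, 8.28% with a rise. Of the receptor genes, Itgb5 and Itgb3 had groups that did not overlap, as did 49.3% of all tested genes. Those of Spp1 did not overlap either, but this difference chose Spp1, so it is not set against that share.

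The call of that rise of Itgb5 differed between fits. Leaving out Runx2ko replicate 1 gave 3.40 with SE 0.26 (edgeR adjusted p = 1.09e-05) in a fit where 28% of genes passed, and with the libraries of the 2 groups alone the adjusted p was 9.16e-06. The call was lost without BM progenitor replicate 1, 2 or 3 (adjusted p = 0.115, 0.138 and 0.133), without Runx2wt replicate 1, 2 or 3 (0.078, 0.108 and 0.0744) and without Runx2ko replicate 2 (0.0525), while the log2 fold change stayed between 3.21 and 3.56. It was also lost with limma-voom (adjusted p = 0.0938).

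Against BM progenitor, Itgb5 in Runx2ko had a mean of 86.5 ± 77.8 CPM (SD, n = 3) and rose by 2.97 on the log2 scale (SE 0.89, edgeR adjusted p = 0.0485), although the groups overlapped. In this comparison Itgb5 was the 1 receptor gene of 4 that passed, where 17.2% of all tested genes passed and 10% rose. No receptor gene had groups free of overlap, a state that 38.4% of all genes showed. Spp1 also passed upward, without overlap, but it is not set against these shares, since the BM progenitor libraries entered its choice. The rise of Itgb5 was 3.51 without Runx2ko replicate 1 (edgeR adjusted p = 1.53e-05, in a fit where 28.5% of genes passed). With any 1 of the other 8 libraries left out Itgb5 did not pass (adjusted p from 0.0713 without Runx2wt replicate 3 to 0.161 without BM progenitor replicate 2), and on the log scale of limma-voom it was 2.02 (adjusted p = 0.304). Between Runx2ko and Runx2wt the log2 fold change of Itgb5 was -0.45 (SE 0.81, 95% interval -2.26 to 1.37, edgeR adjusted p = 0.908). Without Runx2ko replicate 1 it was 0.11 (adjusted p = 0.957), and so of the other sign.

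Itgb3 (ENSMUSG00000020689, GRCm38 chromosome 11, 104608000 to 104670476, plus strand), the beta 3 subunit, showed another order. BM progenitor libraries had the high values of 34.1, 27.5 and 28 CPM, Runx2wt libraries had 11.9, 17.7 and 15.6 CPM, and those of Runx2ko had 27.5, 12 and 33.9 CPM. Each Runx2wt library was below each BM progenitor library, whereas Runx2ko replicates 1 and 3 were near the BM progenitor level and replicate 2 was within the Runx2wt range. The means of 15.1 ± 2.98 and 29.9 ± 3.67 CPM (SD, n = 3 each) differed by a log2 fold change of -0.99 (SE 0.36), which did not pass in edgeR (adjusted p = 0.0908). It passed without Runx2ko replicate 1 (adjusted p = 0.048), without Runx2ko replicate 2 (0.0287) and with the compared libraries alone (0.00804). Between Runx2ko and Runx2wt the log2 fold change was 0.70 (SE 0.36, 95% interval -0.11 to 1.5, edgeR adjusted p = 0.664). Against BM progenitor the Runx2ko value was -0.30 (SE 0.35, adjusted p = 0.592), and it was 0.037 without Runx2ko replicate 2.

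Set against each other within a library, the tags of the beta subunits need no scaling between libraries. Itgb5 made up 27.8%, 21.5% and 30.5% of the tags of both genes in BM progenitor. In Runx2wt its share was 91.0%, 88.2% and 86.8%. Of the Runx2ko libraries, replicates 2 and 3 were at 89.0% and 82.4%, and replicate 1 was at 12.4%, from 12 Itgb5 and 85 Itgb3 counts. The exact Clopper-Pearson 95% intervals of BM progenitor reached at most 37.6%, that of Runx2ko replicate 1 ran from 6.56% to 20.6%, and those of the other transformed libraries began at 79.4% or more. These intervals cover counting error only. Beta 3 tags thus outnumbered beta 5 tags in the 3 BM progenitor libraries and in Runx2ko replicate 1, and the reverse held in the other 5.

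**Figure D3:**
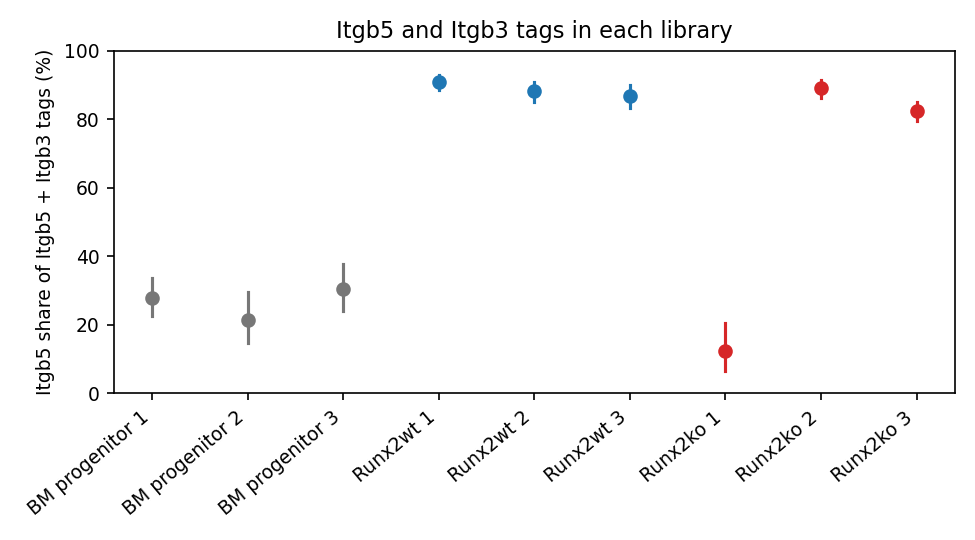
Share of Itgb5 among the summed tags of Itgb5 and Itgb3 in each library (percent), with exact 95% binomial intervals as bars. BM progenitor libraries lie at 21.5% to 30.5%, Runx2ko replicate 1 at 12.4%, and the other transformed libraries at 82.4% to 91.0%.

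Itgav (ENSMUSG00000027087, GRCm38 chromosome 2, 83724397 to 83806916, plus strand), the alpha v subunit that both beta subunits pair with, varied least of the 5 genes. Its libraries read 20.1, 18.3 and 21.9 CPM for BM progenitor, 20.7, 17.5 and 19.8 CPM for Runx2wt, and 27.2, 20.4 and 31.2 CPM for Runx2ko. The ranges of BM progenitor and Runx2wt lay almost on top of each other, and Runx2ko replicates 1 and 3 lay above both. The log2 fold change of Runx2wt over BM progenitor was -0.06 (SE 0.22, 95% interval -0.56 to 0.44, edgeR adjusted p = 0.884), and without Runx2wt replicate 2 it was 0.0083. Runx2ko differed from Runx2wt by 0.44 (SE 0.22, 95% interval -0.06 to 0.94, adjusted p = 0.66) and from BM progenitor by 0.38 (SE 0.22, adjusted p = 0.262), neither of which passed. Itgav had 63 to 115 counts per library.

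Cd44 (ENSMUSG00000005087, GRCm38 chromosome 2, 102811141 to 102901665, minus strand), the hyaluronan receptor, had 203 to 2220 counts per library. Levels were 357, 382 and 471 CPM for BM progenitor, 285, 382 and 297 CPM for Runx2wt, and 65.7, 305 and 400.3 CPM for Runx2ko. The other libraries fell between 285 and 471 CPM, and Runx2ko replicate 1 lay far below them. The log2 fold change was -0.33 (SE 0.49, edgeR adjusted p = 0.68) for Runx2wt over BM progenitor. For Runx2ko over Runx2wt it was -0.32 (SE 0.49, adjusted p = 0.892), and 0.13 without Runx2ko replicate 1 (SE 0.20, adjusted p = 0.923). For Runx2ko over BM progenitor it was -0.65 (SE 0.49, adjusted p = 0.392), and -0.20 without that library (adjusted p = 0.487). CD44 is made in variant isoforms by alternative exons, which a 3′ tag does not tell apart.

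**Figure D4:**
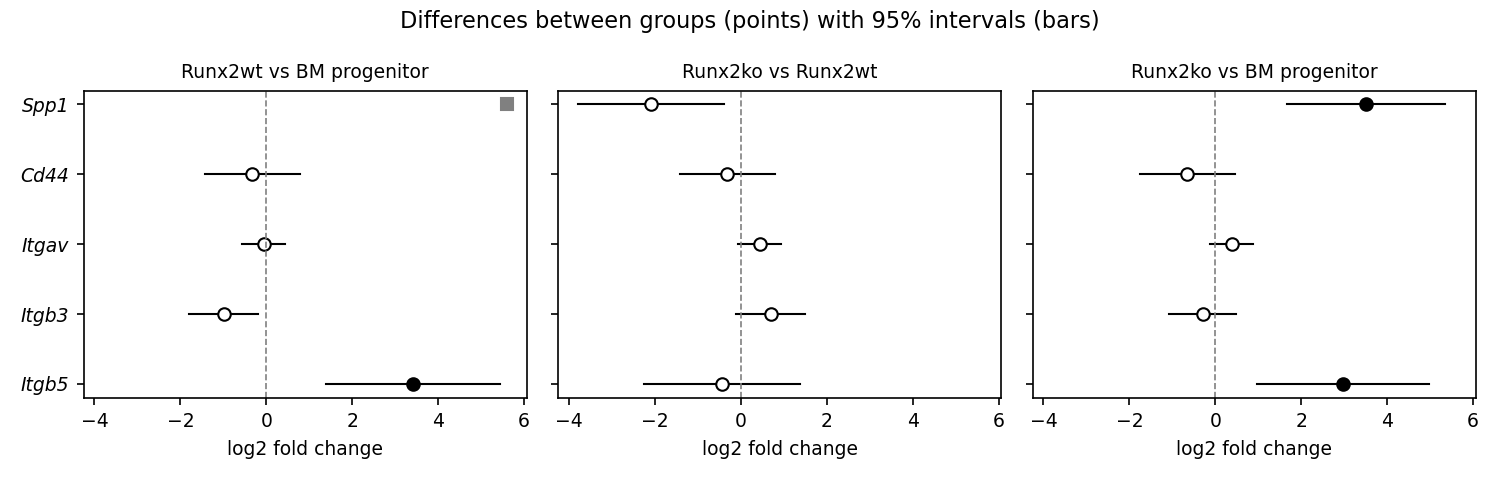
Log2 fold changes of the 5 genes in 3 comparisons, with 95% intervals from the edgeR fit as bars, filled points for an adjusted p under 0.05 and open points otherwise. The grey square, Spp1 in Runx2wt over BM progenitor, was the basis of its choice and is drawn without a test; no point is filled for Runx2ko over Runx2wt.

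Across the 5 genes none passed between Runx2ko and Runx2wt, where 0% of all genes passed in edgeR, 886 genes (7.91%) had an unadjusted p under 0.05 and DESeq2 called 48 genes (0.362%). Of the 5, Spp1 alone had an unadjusted p under 0.05 there. The Runx2wt libraries of this comparison entered its choice, so its p is not set against that share. For none of the 5 were the groups free of overlap, a state that 9.68% of all genes showed. The median log2 fold change of the 5 was -0.32, against 0.01 over all tested genes. With Runx2ko replicate 1 left out 5 genes passed in all (0.043%), none of them among these. The order of mean levels was BM progenitor, Runx2ko, Runx2wt for Spp1 and Itgb5 from low to high, and between the last 2 of that order neither gene passed. The 95% interval of the Itgb5 difference held 0. That of Spp1 lay below 0, which is a description only, since the Runx2wt libraries entered its choice. For Itgb3 it was Runx2wt, Runx2ko, BM progenitor, with no neighbours that passed. The ranges of Cd44 and Itgav overlapped between all 3 groups.

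Other integrin genes that can serve osteopontin came from a list of 7, of which 3 could be tested. Itgb1, the beta subunit shared by many integrins, was at 151 to 176 CPM in BM progenitor, 182 to 218 CPM in Runx2wt and 185 to 209 CPM in Runx2ko, and passed in no comparison. Itga4, whose pair with Itgb1 binds osteopontin and VCAM-1, rose in Runx2ko over BM progenitor by a log2 fold change of 0.57 (edgeR adjusted p = 0.0349), from 45.9 to 68.2 CPM (0.56 without Runx2ko replicate 1, adjusted p = 0.0355), and did not pass in Runx2wt (0.44, adjusted p = 0.0849). Itga5 was at 0.761 to 4.46 CPM and did not pass. Itgb6 had no count in any library, which allows up to 3 counts per library, or 0.547 to 0.97 CPM. Itga8, Itga9 and Itgb8 stayed under 1 CPM in each library.

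Itga2b, the alpha IIb partner of beta 3, had 33.9, 46.9 and 29.9 CPM in BM progenitor libraries, 1.13, 4.16 and 12 CPM in those of Runx2wt, and 688, 0.761 and 9.49 CPM in those of Runx2ko. The level of 688 CPM belongs to Runx2ko replicate 1, which also held Itgb3 at 27.5 CPM, and whose megakaryocyte and platelet markers, Itga2b among them, summed to 815 CPM. That sum is thus mostly Itga2b itself. Pf4 and Ppbp, chemokines of platelets, are part of that list. In Runx2ko replicate 1 Pf4 was at 33.6 CPM, within the BM progenitor range of 21.8 to 34.5 CPM. Ppbp was at 42.4 CPM there, against at most 7.43 CPM in BM progenitor. The differences of Itga2b did not pass with all libraries (edgeR adjusted p = 0.313 for Runx2wt over BM progenitor). Against BM progenitor it fell by 2.74 in Runx2wt and fell by 2.93 in Runx2ko on the log2 scale once Runx2ko replicate 1 was left out (edgeR adjusted p = 0.0176 and 0.0267).

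Enzymes that modify or cleave osteopontin came next. Of 10 listed, 5 could be tested, and 2 rose over BM progenitor both in Runx2wt and in Runx2ko, with none that fell, where 8.28% and 10% of all tested genes rose. Tgm2, a transglutaminase that crosslinks osteopontin, had 91.1, 17.5 and 9.77 CPM in BM progenitor libraries. Runx2wt libraries had 229.5, 829 and 906 CPM, and those of Runx2ko had 966, 795 and 655 CPM. It rose by log2 fold changes of 4.04 (edgeR adjusted p = 0.0171) and 4.34 (adjusted p = 0.012). Runx2ko replicate 1, low for Spp1 and Itgb5, was the highest library for Tgm2, and without it the rise in Runx2ko was 4.18 (adjusted p = 0.00292). Mmp12, the macrophage elastase, rose by 3.79 in Runx2wt (adjusted p = 0.00747) and by 2.14 in Runx2ko (adjusted p = 0.0357), with 211, 98.9 and 223 CPM in the former and 26.2, 69.7 and 74.3 CPM in the latter. Its rise in Runx2ko was 2.49 without replicate 1 of that group (adjusted p = 0.00366). Between Runx2ko and Runx2wt the groups of Mmp12 did not overlap, but its log2 fold change of -1.64 did not pass (edgeR adjusted p = 0.579). Fam20c, the kinase that phosphorylates osteopontin, had 46.5, 66 and 129.6 CPM in Runx2wt libraries against 2.26, 33.7 and 34.1 CPM in those of Runx2ko. Its groups did not overlap either, a state that 9.68% of all tested genes showed. Its log2 fold change of -1.77 did not pass (edgeR adjusted p = 0.584). That value was -1.24 without Runx2ko replicate 1 (adjusted p = 0.385). Mmp9 ranged from 0.941 to 65.1 CPM and did not pass. Acp5, the acid phosphatase of osteoclasts, was at 5.73 CPM at most; it did not pass in Runx2wt with all libraries (adjusted p = 0.0505) and fell by 1.89 on the log2 scale without Runx2ko replicate 1 (adjusted p = 0.0368).

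Among other ligands of CD44 and the alpha v integrins, 8 of 12 could be tested, and 2 rose and none fell in Runx2wt over BM progenitor, against 8.28% of all tested genes that rose and 13.5% that passed. Cd47, a ligand of SIRP alpha and a partner of alpha v beta 3, rose by a log2 fold change of 0.81 (edgeR adjusted p = 0.0238). Vwf, von Willebrand factor, rose by 4.09 (adjusted p = 0.0215) from at most 1.49 CPM. In Runx2ko Cd47 rose by 0.85 and Vwf by 4.13 (adjusted p = 0.0177 for both), and by 0.95 and 2.92 without replicate 1 of that group (adjusted p = 0.00392 and 0.00998). Fn1, fibronectin, fell by 2.66 on the log2 scale there (adjusted p = 0.0224), with a log2 fold change of -2.36 without that library (adjusted p = 0.0162). Of all tested genes 17.2% passed in Runx2ko over BM progenitor, and 28.5% without that library. Thbs1, thrombospondin 1, had 165, 13.5 and 12.5 CPM in BM progenitor libraries and 327 to 785 CPM in those of Runx2wt, a difference of 3.2 on the log2 scale that did not pass (adjusted p = 0.0893). With Runx2ko replicate 1 left out, when 28% of all tested genes passed, 3 rose, Thbs1 among them, and 1 fell, Mfge8, while in Runx2ko Thbs1 joined the genes that rose. Srgn, the proteoglycan core of granules that binds CD44, passed in no comparison.

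Genes of the machinery inside the cell followed. Of 20 genes of integrin activation and signalling, 15 could be tested and none passed in the 3 comparisons, against 13.5%, 0% and 17.2% of all tested genes; in each comparison 1 of the 15 had an unadjusted p under 0.05. Their median log2 fold change was 0.22 in Runx2wt over BM progenitor and -0.12 in Runx2ko over Runx2wt. Tln1, talin, which switches integrins on, had log2 fold changes of 0.24 and 0.13 in those comparisons, and Rap1b, the GTPase upstream of it, 0.24 and -0.12. In the fit without Runx2ko replicate 1 a single gene rose in each comparison with BM progenitor, Src in Runx2wt and Pxn in Runx2ko. Of 10 genes for cytoplasmic partners and sheddases of CD44, 8 could be tested and 2 rose in Runx2wt over BM progenitor, against 8.28% of all tested genes. Rdx, radixin, which ties CD44 to actin, rose by 0.63 (edgeR adjusted p = 0.019), and Adam17, a protease that sheds surface proteins, by 0.70 (adjusted p = 0.0401). In Runx2ko over BM progenitor, where 17.2% of all tested genes passed, Rdx rose by 0.62 (adjusted p = 0.0169). Mmp14, which cleaves CD44, fell there by 3.62 (edgeR adjusted p = 0.0316). Without Runx2ko replicate 1 these values in Runx2ko were 0.62 and -3.09 (adjusted p = 0.0114 and 0.0104). In that fit, where 28% and 28.5% of all tested genes passed, Cd74 also fell in Runx2wt, and in Runx2ko Adam17 also rose and Ezr also fell.

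Skeletal targets of Runx2 other than Spp1 were mostly near the limit of counting. Of 13 other listed targets 9 had a row in the table, and 1 passed the filter, Mmp13, a collagenase, at 0.809 to 7.61 CPM. Its log2 fold change of 1.24 in Runx2wt over BM progenitor did not pass (edgeR adjusted p = 0.264). In Runx2ko it rose by 2.05 without replicate 1 of that group (adjusted p = 0.028). Col1a1, the main bone collagen, was at 3.04 CPM at most, and Alpl, alkaline phosphatase, at 0.278 CPM at most. Ibsp, Dmp1, Dspp and Mepe, the SIBLING family neighbours of Spp1, were looked up by symbol. None was matched to a row of the count table, so they have no values here.

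The genes whose profile over the 9 libraries was closest to that of Spp1 were found by the root mean square difference of log2 CPM after each gene's own mean was subtracted, a description of likeness with no test. Igf1, insulin-like growth factor 1, was nearest at 0.51 log2 units, where Spp1 itself spanned 7.20. It was at 66, 39.9 and 86.8 CPM in Runx2wt libraries, 5.18, 35 and 42 CPM in those of Runx2ko and at most 4.46 CPM in BM progenitor. Pkdcc, a secreted protein kinase, followed at 0.64, Pdpn, podoplanin, a CD44-binding mucin, at 0.74, Wfdc18 at 0.77 and Ch25h, cholesterol 25-hydroxylase, at 0.80. Ch25h had no count in BM progenitor, so its low values there are set by the prior count. Nearest to Itgb5, which spanned 5.19 log2 units, were Gpx3, a secreted glutathione peroxidase, at 0.35 and Cfap57 at 0.40; Gpx3 was at 2.26 CPM in Runx2ko replicate 1 and at 38.8 CPM or more in the other transformed libraries. The nearest genes were Asap1 and Dck for Cd44, Rpn2 and Mitd1 for Itgav, and Wdsub1 and Ptprj for Itgb3.

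**Figure D5:**
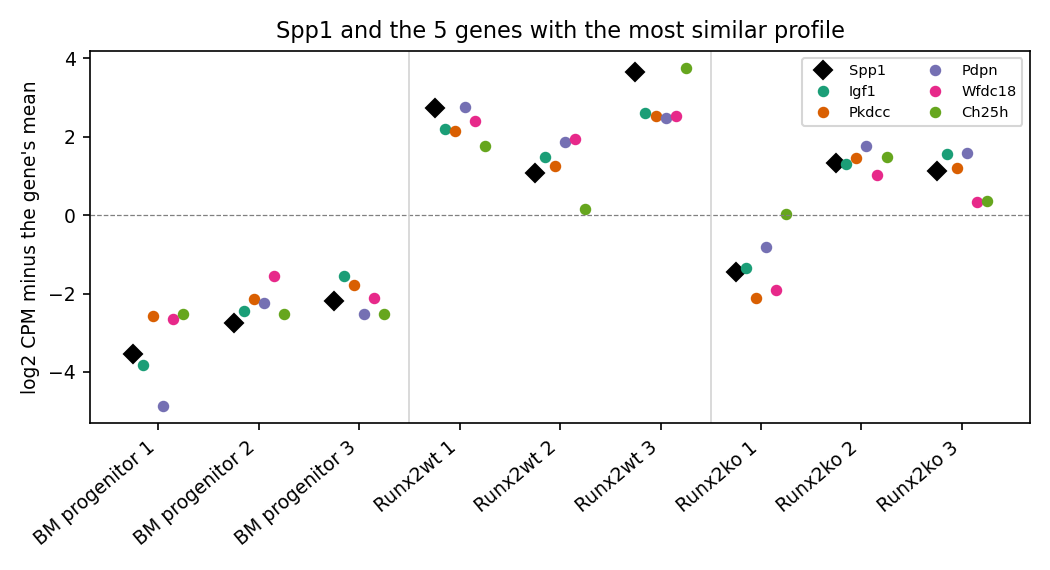
Log2 CPM minus each gene's mean over the 9 libraries, for Spp1 (black diamonds) and the 5 genes with the smallest root mean square difference from it. All 6 genes are lower in the 3 BM progenitor libraries than in the Runx2wt libraries, and in Runx2ko replicate 1 each is below Runx2ko replicates 2 and 3.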

How the data were processed

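Expression was measured by QuantSeq 3′ libraries from 500 ng of RNA. Raw counts, 1 row per Ensembl gene, were deposited with a table of normalized values. Each deposited normalized value was the raw count multiplied by a constant of its library. Per the submitters' processing notes FastQC, STAR, DESeq2 and the build GRCm38 were used; their versions, the counting program and the strand setting are not given in the sources used. Symbols matched 21042 of 21159 identifiers (GENCODE M21, GRCm38). Genes overlapping the 5 members on that annotation had at most 3 counts in all 9 libraries.

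Raw counts of all 9 libraries were fitted with edgeR 4.0.16 (R 4.3.3; TMM, filterByExpr, quasi-likelihood F-test). Adjusted p-values are Benjamini-Hochberg over all 11196 tested genes, with a threshold of 0.05, and standard errors come from the F statistic. Log2 CPM used a prior count of 2. The fit was tested on simulated data. Alternatives were DESeq2 1.42.0, limma-voom (limma 3.58.1), RLE factors, other filters, the compared libraries alone, a replicate block, the deposited normalized values with pseudocounts of 1 and 0.5, and each library left out. List counts without Runx2ko replicate 1 were added after seeing the data. Members and lists were chosen with earlier results of these data known. Named genes were the 5 members, up to 4 tested genes of each list with the highest mean CPM, the nearest genes by profile, and, chosen after their values were seen, list genes that passed or changed call. Same-numbered samples of different groups did not deviate together (r of -0.066 to 0.072 over 9 pairs), so the numbers were not taken to pair them. P-values judge a difference against the spread between these samples. The main fit holds all 9 libraries, so a library outside a comparison also enters its standard error and p-value. For Itgb5 in Runx2wt over BM progenitor the SE was 0.91 with Runx2ko replicate 1 and 0.26 without it. A gene of the skeletal list is not reported here.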

Additional observations from a re-analysis of the deposited data

How the results depend on the processing

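For 5 genes in 3 comparisons, 18 alternatives each were run. Log2 fold changes that lost the call were 3.40 (limma-voom), 3.42 (replicate block), 3.42 and 3.43 (deposited values, pseudocounts 1 and 0.5) for Itgb5 in Runx2wt over BM progenitor. For Itgb5 in Runx2ko over BM progenitor they were 2.02 (limma-voom), 2.99 (compared libraries alone), 2.64 (replicate block) and 1.86 with either pseudocount. For Spp1 in that comparison they were 3.25 (limma-voom) and 3.17 (pseudocount 0.5). Itgb3 in Runx2wt over BM progenitor gained the call with the compared libraries alone (-1.0). Left-out libraries gave log2 fold changes over BM progenitor in Runx2wt of 3.21 to 3.56 for Itgb5, -1.13 to -0.86 for Itgb3 and -0.13 to 0.0083 for Itgav. In Runx2ko over BM progenitor the ranges were 2.21 to 3.51 for Itgb5, 3.13 to 3.99 for Spp1 and -0.62 to 0.037 for Itgb3. In Runx2ko over Runx2wt they were -0.79 to 0.13 for Cd44 and -1.20 to 0.11 for Itgb5. The cause of these changes was not tested; leaving out a library also lowers the number of samples.

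Genes called over BM progenitor numbered 1513 in Runx2wt and 1924 in Runx2ko. They were 3679 and 1262 with the compared libraries alone, 922 and 1120 with the replicate block, and 209 to 3256 and 405 to 3311 with libraries left out. For Runx2ko over Runx2wt the count was 0, 48 with DESeq2, and 0 to 5 with libraries left out. The replicate block, whose numbers were not taken to pair the samples, changed no call of the 5 genes beyond those of Itgb5. Depth limits Itgb5 in Runx2ko replicate 1, at 12 counts.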

Other observations

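Genes often seen with Spp1 in osteoclasts and lipid-associated macrophages did not move as 1 block. Of 16 listed, 12 could be tested; 2 rose and none fell in Runx2wt over BM progenitor, where 13.5% of all tested genes passed. The 2 were Mmp12 and Cd9, a tetraspanin, which rose by 1.31 on the log2 scale (edgeR adjusted p = 0.0203). Without Runx2ko replicate 1, 13 could be tested, now with Dcstamp, and 4 rose and 3 fell, Dcstamp among them, where 28% of all tested genes passed. In Runx2ko over BM progenitor Mmp12 rose and Fabp5, a fatty acid-binding protein, fell by 1.45 (adjusted p = 0.0392). In that comparison 17.2% of all tested genes passed. The Fabp5 value was -1.13 without Runx2ko replicate 1 (adjusted p = 0.0238). In that fit 1 gene rose and 3 fell, where 28.5% of all tested genes passed. Gpnmb, a transmembrane glycoprotein of such macrophages, was at 214, 155 and 236 CPM in BM progenitor, 804, 286 and 1186 CPM in Runx2wt and 51.1, 333 and 261 CPM in Runx2ko. Like Spp1, Gpnmb had its highest level in Runx2wt replicate 3, and its log2 fold change of 1.91 over BM progenitor did not pass with all libraries (adjusted p = 0.0777) but did without Runx2ko replicate 1 (adjusted p = 0.00495). Lgals3, galectin 3, had 719, 637 and 1451 CPM in Runx2wt libraries and 735 to 826 CPM in those of BM progenitor, a log2 fold change of 0.29 that did not pass (edgeR adjusted p = 0.582). Lpl, lipoprotein lipase, was at 514 to 680 CPM in BM progenitor and 244 to 351 CPM in Runx2wt. Its log2 fold change of -1.08 did not pass with all libraries (edgeR adjusted p = 0.247). In the fit without Runx2ko replicate 1 Lpl fell by 1.08 on the log2 scale (adjusted p = 0.00168).

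Of 18 transcription factors, Hoxa9, Meis1 and Fosl2 rose and Runx1 and Vdr fell in Runx2wt over BM progenitor, where 13.5% of all tested genes passed. Fosl2, a subunit of AP-1, was at 46.4 to 63.9 CPM in BM progenitor and 118 to 251 CPM in Runx2wt, and rose by 1.72 (edgeR adjusted p = 0.00588). Vdr, the vitamin D receptor, went from 8.03 to 14.2 CPM in BM progenitor to at most 2.49 CPM in Runx2wt (log2 fold change -3.13, adjusted p = 0.0158). Cbfb, the partner of the RUNX proteins, was at 229 to 306 CPM in all 9 libraries. In Runx2ko over BM progenitor 3 rose, Hoxa9, Meis1 and Fosl2, and 1 fell, Vdr, with all libraries (17.2% of all tested genes passed). With Runx2ko replicate 1 left out 5 rose and 6 fell in Runx2wt, and 5 rose and 5 fell in Runx2ko, where 28% and 28.5% of all tested genes passed. In that fit Runx2 rose in both, by 1.56 and 1.26 on the log2 scale (edgeR adjusted p = 0.000127 and 0.000815). With all libraries its log2 fold changes were 1.56 and 0.80, and neither passed (edgeR adjusted p = 0.0738 and 0.309). The library left out held the lowest Runx2 level, at 21 CPM. None of the 18 passed between Runx2ko and Runx2wt.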
